A study of Mus musculus with 4 samples.

Results

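The kinases of the mitogen-activated protein (MAP) kinase cascade were examined in RNA from splenic helper T cells of mice labelled wild type or RIPK1-KO. They were taken by name, as every row whose symbol is Mapk, Map2k, Map3k or Map4k followed by a number, apart from Map3k7 and Map3k14. This gave 38 kinases among 23700 rows, each on 1 row: 13 of the Mapk tier, 7 of the Map2k tier, 13 of the Map3k tier and 5 of the Map4k tier. Both groups were C57BL/6 mice 43 weeks old, with 2 libraries labelled wild type (WT 1 and WT 2) and 2 labelled as lacking RIPK1 (KO 1 and KO 2). All 4 sample titles also carry the tag Ctrl, which the titles do not explain. Per the series' design text the deletion is specific to T cells; the Cre driver, the deleted exons and the sex of the animals were not given in the sources used here. RIPK1 is the kinase that the TNF receptor recruits to start NF-kB and MAP kinase signalling or cell death. No label ties a library to an animal of its own, so the p-values measure only library-to-library spread, which may be technical. Where 4 values are set against each other, those of WT 1 and WT 2 stand before "against" and those of KO 1 and KO 2 after it.

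A MAP kinase cascade passes a signal down a chain of kinases. A MAP4K or a small GTPase switches on a MAP3K, the MAP3K phosphorylates a MAP2K, and the MAP2K phosphorylates a MAPK on a threonine and a tyrosine of its activation loop. The main branches end in the ERK, JNK and p38 kinases, with ERK5 as a further one. In T cells the antigen receptor drives ERK through RAS and RAF, CD28 and cytokine signals feed JNK and p38, and the TNF receptor complex reaches JNK and p38 through MAP3Ks. These kinases are switched on by phosphorylation, so the level of their RNA is not a measure of their activity.

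Values are FPKM (fragment counts scaled for transcript length and library depth), which can be compared between genes because length is divided out. From the steps of low values, depth was estimated at 17600000 to 22100000 fragments per library, so that a 2 kb transcript at 1 FPKM rested on 31.6 to 39.7 fragments. Ripk1, the gene named as deleted, stood higher under the KO label, at 5.61 and 5.60 against 10.4 and 9.54 FPKM (log2 change 0.73 ± 0.17 SE, limma adjusted p = 0.0262, and 0.33 with adjusted p = 0.192 after trimmed-mean scaling). Ripk1 RNA was thus not lower under the KO label, and the label could not be checked this way. A whole-gene FPKM cannot test for loss of single exons, so all directions given here refer to the labels KO and WT as deposited. The 8 markers of CD4 T cells summed to 983 and 1230 against 1600 and 1470 FPKM, with 3 of 8 called higher as deposited. Of the CD8 T cell genes, Cd8a stayed under 1 FPKM and Cd8b1 stood at 10.9 and 10.5 against 10.3 and 11.3 FPKM. Erythroid markers (9 rows, 5 of 5 tested called higher) summed to 6.33 and 99.2 against 393 and 319 FPKM, and B cell markers (7 rows, 1 of 2 tested called higher) to 4.88 and 5.13 against 9.99 and 9.73 FPKM. Markers of macrophages, monocytes or neutrophils (8 rows, 1 of 4 tested called higher) summed to 6.12 and 41.5 against 21.7 and 52.0 FPKM. None was called among those of CD8 T or NK cells (15.7 and 15.5 against 13.7 and 14.7 FPKM), dendritic cells (33.9 and 27.5 against 24.5 and 25.2 FPKM) and platelets (1.16 to 1.68 FPKM). After trimmed-mean scaling 1 CD4 T cell marker was called higher and 1 lower (Cd3d, log2 change -0.74, limma adjusted p = 0.0447), 1 erythroid and 1 B cell marker higher, and 0 of macrophages, monocytes or neutrophils. Alas2 was listed at 0 in WT 1, Cd14 at 0 in every library but KO 1, and Ppbp at 0 in every library. As deposited, the erythroid, B cell and CD4 T cell sums were higher in both libraries labelled KO, and the dendritic and CD8 T or NK cell sums lower in both. These sums were not scaled, and the trimmed-mean factors of the libraries were 0.799 and 0.914 against 1.20 and 1.14. The part of these cell types in the results on the kinases was not tested.

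Of the 38 kinases, 30 had at least 1 FPKM in at least 2 libraries and were tested, and each of those 30 reached 1 FPKM in at least 1 wild-type library. In the libraries labelled KO, 17 rose and 0 fell at a limma adjusted p of 0.05 over 11074 genes, which is 56.7% of the tested kinases, and at an unadjusted p under 0.05 there were 21 higher and 0 lower. Among all genes tested, 25.6% were called higher and 1.0% lower. The median log2 change of the tested kinases was 0.67, against 0.38 for all genes tested. The change was above 0 for all 30 kinases and for 76.7% of all genes. Both libraries labelled KO lay above both wild-type libraries for 29 of the 30 kinases, as for 58.5% of all genes tested; Map3k12 was the exception. Within the wild type, 25 of the 30 kinases were higher in WT 2 than in WT 1, as were 68.2% of all genes. In bulk RNA, fewer cells of a type and less RNA per cell cannot be told apart.

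That shift bears on every count here. Trimmed-mean scaling, which sets the bulk of genes level between libraries, moved the median of all genes to 0.01, and 3 kinases were then called higher and 0 lower (limma), against 4.52% and 3.75% of all genes. The 3 were Map3k8, Map4k1 and Map4k2. The median of the tested kinases was then 0.26, 27 of 30 had a change above 0 (51.0% of all genes did), and 17 had both libraries labelled KO above both wild-type libraries (33.5% of all genes). After quantile normalization 0 kinases were called (limma, 8 higher and 0 lower at an unadjusted p under 0.05; smallest adjusted p = 0.0546), with 1.34 and 0.614% of all genes called higher and lower, and 25 of 30 kinases had a change above 0 (49.1% of all genes). With no filter on low values 0 kinases passed (limma, 22 at an unadjusted p under 0.05), against 0.0149% of all genes. Without WT 1 the count as deposited was 0 (limma, 17 higher and 0 lower at an unadjusted p under 0.05), against 0.0813% of all genes. Without WT 2, KO 1 or KO 2 it was 8, 11 and 9, against 14.5, 16.5 and 19.6% of all genes. With trimmed-mean scaling and 1 library left out, 0 kinases passed in any of the 4 fits (limma, 4 to 8 at an unadjusted p under 0.05), against 0.244, 0.524, 0.108 and 0.461% of all genes without WT 1, WT 2, KO 1 and KO 2. The calls of Map3k8, Map4k1 and Map4k2 after trimmed-mean scaling were thus lost on leaving out any 1 library.

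**Figure D1:**
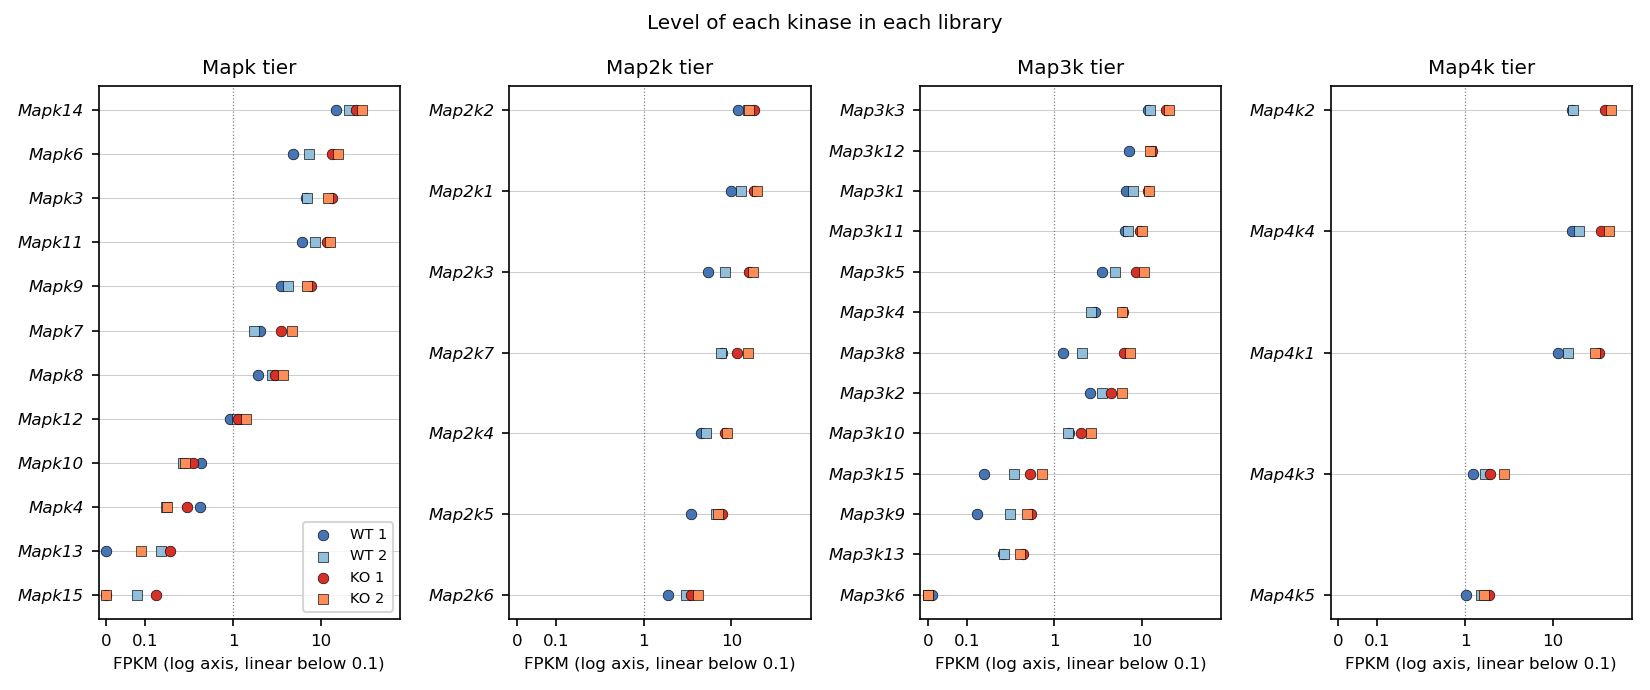
FPKM of the kinases in each of the 4 libraries, one panel per tier, on a log axis that is linear below 0.1; blue points are wild type, red and orange points are labelled KO, and the dotted line marks 1 FPKM. The libraries labelled KO lie to the right of the wild type for most kinases above 1 FPKM, with Map3k8 the furthest apart (1.25 and 2.09 against 6.18 and 7.36 FPKM).

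The plot of levels by library shows that 8 kinases stayed under 1 FPKM, and that above it the libraries labelled KO mostly lay to the right. The plot of log2 changes sets the tested kinases beside the median gene.

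**Figure D2:**
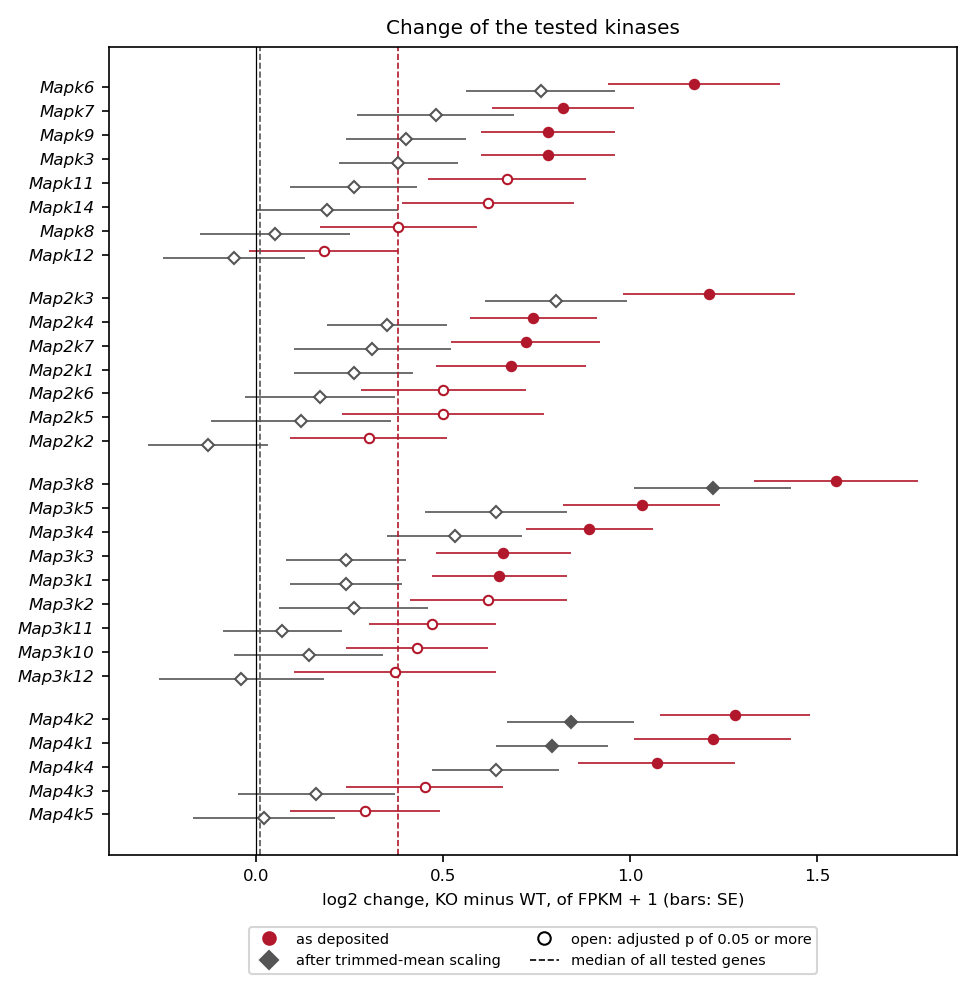
Log2 change (KO minus WT, of FPKM + 1) of the tested kinases, with bars for the SE, as deposited (circles) and after trimmed-mean scaling (diamonds); filled symbols have a limma adjusted p under 0.05, and dashed lines are the medians of all genes tested, 0.38 and 0.01. The changes shown were all above 0 as deposited; after trimmed-mean scaling those of Map2k2, Mapk12 and Map3k12 were below 0, and 3 symbols are filled, for Map3k8, Map4k1 and Map4k2.

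The uppermost tier held the 2 kinases with the highest mean FPKM over all 4 libraries, Map4k2 and Map4k4. In the wild type alone the mean of Mapk14, 17.8 FPKM, lay above the 16.8 FPKM of Map4k2. The tier split into 3 members that rose and 2 that did not pass (limma), against 25.6% of all genes called higher. After trimmed-mean scaling 2 were called higher and 0 lower, against 4.52 and 3.75% of all genes. Map4k1 (HPK1) is a kinase of blood cells that restrains antigen receptor signalling by phosphorylating the adaptor SLP-76. It stood at 11.6 and 15.0 against 33.5 and 30.4 FPKM. Both libraries labelled KO lay above both of the wild type, as for 58.5% of all genes tested. The mean was 2.41-fold higher (log2 change 1.22 ± 0.21 SE, limma adjusted p = 0.0151). Map4k2, which acts on the JNK branch, stood at 16.5 and 17.1 against 39.0 and 45.7 FPKM. That was 2.51-fold (log2 change 1.28 ± 0.20 SE, limma adjusted p = 0.0136), with wild-type libraries that lay close together. Map4k4 (HGK), a kinase of the TNF and JNK pathway also known from cell migration, stood at 16.5 and 19.9 against 35.8 and 43.2 FPKM (2.16-fold, limma adjusted p = 0.0188). After trimmed-mean scaling the folds of Map4k1, Map4k2 and Map4k4 were 1.77, 1.84 and 1.59 (limma adjusted p = 0.0417, 0.0434 and 0.0638).

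The 2 other MAP4Ks were low in all libraries. Map4k3 (GLK), which activates PKC-theta after antigen receptor engagement, stood at 1.24 and 1.68 against 1.94 and 2.79 FPKM. The difference did not pass (log2 change 0.45 ± 0.21 SE, limma adjusted p = 0.157). Map4k5 (KHS) stood at 1.03 and 1.52 against 1.89 and 1.64 FPKM (log2 change 0.29 ± 0.20 SE, limma adjusted p = 0.305). Of the summed FPKM of the tier, Map4k4 made up 35.3 and 36.1% against 31.9 and 34.9%, Map4k2 35.3 and 31.0% against 34.8 and 36.9%, and Map4k1 24.7 and 27.1% against 29.9 and 24.6%. The groups overlapped for Map4k2 and Map4k1 and not for Map4k4. Map4k3 held 2.64 and 3.04% against 1.73 and 2.25%, and Map4k5 2.19 and 2.75% against 1.69 and 1.32%, both lower in both libraries labelled KO. The sum of the tier was 46.9 and 55.2 against 112 and 124 FPKM.

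To show where the MAP4K genes that rose and those that did not pass are transcribed from, the 250 bases before the first listed start of 4 of them are given, 5′ to 3′, from RefSeq on GRCm38.p6, a later build than the one named for the files. Map4k1 (chr7:28981800-28982049, plus strand) and Map4k2 (chr19:6340910-6341159, plus strand) rose; Map4k3 (chr17:80728026-80728275, minus strand) and Map4k5 (chr12:69893164-69893413, minus strand) did not pass. Capitals mark matches on either strand to 5 motifs, the GC box GGGCGG, the ETS core CCGGAAG, the cyclic AMP element TGACGTCA, the AP-1 site TGACTCA and the NF-kB type site (GGGA, any base, TTTCC).
Map4k1: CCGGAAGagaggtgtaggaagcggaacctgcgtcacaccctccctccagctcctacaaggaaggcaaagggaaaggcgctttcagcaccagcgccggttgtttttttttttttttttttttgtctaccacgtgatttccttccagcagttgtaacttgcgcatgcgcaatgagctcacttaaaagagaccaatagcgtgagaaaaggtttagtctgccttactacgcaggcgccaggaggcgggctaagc
Map4k2: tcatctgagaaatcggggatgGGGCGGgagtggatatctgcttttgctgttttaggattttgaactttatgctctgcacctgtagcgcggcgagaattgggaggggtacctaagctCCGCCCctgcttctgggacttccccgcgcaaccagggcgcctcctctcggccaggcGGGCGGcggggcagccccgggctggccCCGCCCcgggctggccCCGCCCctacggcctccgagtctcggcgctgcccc
Map4k3: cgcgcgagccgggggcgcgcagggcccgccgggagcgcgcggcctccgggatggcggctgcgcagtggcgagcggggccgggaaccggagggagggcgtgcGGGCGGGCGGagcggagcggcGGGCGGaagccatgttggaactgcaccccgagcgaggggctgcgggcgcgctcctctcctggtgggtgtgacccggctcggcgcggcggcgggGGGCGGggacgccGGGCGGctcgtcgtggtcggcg
Map4k5: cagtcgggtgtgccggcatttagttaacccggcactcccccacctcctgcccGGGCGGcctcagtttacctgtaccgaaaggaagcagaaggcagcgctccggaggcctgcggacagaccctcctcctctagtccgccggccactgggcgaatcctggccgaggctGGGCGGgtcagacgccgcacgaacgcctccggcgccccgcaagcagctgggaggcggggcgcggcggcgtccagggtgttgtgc

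The window of Map4k1 was 50.8% G and C and held 1 ETS core and no GC box. Those of Map4k2, Map4k3 and Map4k5 were 67.2, 82.4 and 70.4% G and C and held 5, 5 and 2 GC boxes, some of which overlap in Map4k3. Windows were listed for 30 of the 38 kinases, and 20 of these held a GC box, against 32.9% of 27025 genes. Those are all genes with a listed window, tested here or not, and the share among tested genes was not computed. The GC box stood in 9 of 13 kinases that rose and 9 of 12 tested kinases that did not pass. The ETS core stood in 3 of 30 (7.05% of all genes), the cyclic AMP element in 1 (1.62%), the AP-1 site in 1 (4.43%) and the NF-kB type site in 0 (0.337%). These are matches of letters in a window and no evidence of binding.

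Among the MAP3Ks, 5 of 9 tested rose and 0 fell (limma), against 25.6 and 1.0% of all genes. After trimmed-mean scaling 1 was called higher and 0 lower, against 4.52 and 3.75% of all genes. Map3k8 had the largest change of the 30 tested kinases. Map3k8 (TPL2) is held inactive by the NF-kB precursor p105 and, once released after TNF receptor or Toll-like receptor signals, activates MEK1 and MEK2. It stood at 1.25 and 2.09 against 6.18 and 7.36 FPKM. The groups lay far apart, with a 4.04-fold higher mean (log2 change 1.55 ± 0.22 SE, limma adjusted p = 0.0129), and the lowest value rested on about 63 fragments. After trimmed-mean scaling it was 3.01-fold (limma adjusted p = 0.0317). Within the tier its share of summed FPKM, which no scaling between libraries can move, was 2.85 and 3.80% against 7.59 and 8.33%.

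Map3k5 (ASK1), which is bound by thioredoxin and activates p38 and JNK under oxidative stress, stood at 3.47 and 4.85 against 8.57 and 10.4 FPKM. It rose 2.28-fold (log2 change 1.03 ± 0.21 SE, limma adjusted p = 0.0195). Map3k4 (MEKK4), which GADD45 proteins activate, stood at 2.93 and 2.63 against 6.01 and 5.97 FPKM. It rose 2.16-fold (log2 change 0.89 ± 0.17 SE, limma adjusted p = 0.0175), and both groups were tight. After trimmed-mean scaling Map3k5 and Map3k4 did not pass (limma adjusted p = 0.0721 and 0.0941). Map3k5 held 7.91 and 8.79% of the tier against 10.5 and 11.8%, which did not overlap, and those of Map3k4 were 6.67 and 4.76% against 7.39 and 6.76%, so that WT 1 and KO 2 nearly met.

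Map3k3 (MEKK3), which acts on MEK5 and on the NF-kB pathway, had the highest mean of the tier, at 11.6 and 12.3 against 18.6 and 20.3 FPKM. It rose 1.63-fold (log2 change 0.66 ± 0.18 SE, limma adjusted p = 0.04), with 0.28 of this above the median gene. Map3k1 (MEKK1), a kinase that also carries a ubiquitin ligase domain, stood at 6.62 and 7.96 against 11.8 and 12.1 FPKM (1.64-fold, limma adjusted p = 0.0421). After trimmed-mean scaling Map3k3 and Map3k1 did not pass (limma adjusted p = 0.329 and 0.311). Map3k12 (DLK), known best from neurons, had the second highest mean but a wide wild type, at 7.08 and 12.5 FPKM, with 12.8 and 12.2 FPKM in the libraries labelled KO. Its groups overlapped, and it did not pass (log2 change 0.37 ± 0.27 SE, limma adjusted p = 0.315). Map3k2 (MEKK2), the mixed lineage kinase Map3k11 and its relative Map3k10 did not pass either, with log2 changes of 0.62, 0.47 and 0.43 (limma adjusted p = 0.0719, 0.0827 and 0.132).

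Of the 7 MAP2Ks all were tested, 4 rose and 0 fell (limma), against 25.6 and 1.0% of all genes. After trimmed-mean scaling 0 were called higher and 0 lower, against 4.52 and 3.75% of all genes. Map2k3 (MKK3), which phosphorylates the p38 kinases, changed most, from 5.41 and 8.36 FPKM in WT 1 and WT 2 to 16.0 and 17.8 FPKM in KO 1 and KO 2. It rose 2.46-fold (log2 change 1.21 ± 0.23 SE, limma adjusted p = 0.0178), and after trimmed-mean scaling it was 1.82-fold and just missed the threshold (limma adjusted p = 0.0543). Its partner Map2k6 (MKK6) was lower and did not pass, at 1.88 and 3.01 against 3.50 and 4.14 FPKM (log2 change 0.50 ± 0.22 SE, limma adjusted p = 0.128).

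The JNK activators Map2k4 (MKK4) and Map2k7 (MKK7) both rose as deposited, and neither passed after trimmed-mean scaling (limma adjusted p = 0.17 and 0.33). Map2k4 stood at 4.47 and 5.16 against 8.46 and 8.91 FPKM (1.80-fold, limma adjusted p = 0.0266). Map2k7 stood at 7.85 and 7.58 against 11.5 and 15.5 FPKM (1.75-fold, limma adjusted p = 0.0422). The ERK activators had the highest means of the tier. Map2k1 (MEK1) stood at 9.94 and 12.8 against 18.1 and 19.5 FPKM. It rose 1.65-fold (limma adjusted p = 0.0477, and 0.0515 with a pseudocount of 0.1). After trimmed-mean scaling its limma adjusted p was 0.292. Map2k2 (MEK2) stood at 11.8 and 15.4 against 18.1 and 15.7 FPKM, with WT 2 next to KO 2, and did not pass (log2 change 0.30 ± 0.21 SE, limma adjusted p = 0.310). Map2k5 (MEK5), which phosphorylates ERK5, was at 3.49 and 6.74 against 7.73 and 6.96 FPKM and did not pass (limma adjusted p = 0.202).

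Among the MAPKs, 5 of 9 tested rose and 0 fell (limma), against 25.6 and 1.0% of all genes. After trimmed-mean scaling 0 were called higher and 0 lower, against 4.52 and 3.75% of all genes. In the ERK branch, Mapk3 (ERK1) stood at 6.83 and 7.04 against 13.3 and 12.0 FPKM. It rose 1.83-fold (log2 change 0.78 ± 0.18 SE, limma adjusted p = 0.0238, and 0.146 after trimmed-mean scaling).

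Mapk6 (ERK3), an atypical and short-lived MAPK that binds the kinase MAPKAPK5, changed most in the tier, from 4.81 and 7.29 FPKM to 13.5 and 15.8 FPKM. Both libraries labelled KO lay above both of the wild type, as for 58.5% of all genes tested. Mapk6 rose 2.42-fold (log2 change 1.17 ± 0.23 SE, limma adjusted p = 0.0182). After trimmed-mean scaling it was 1.79-fold (limma adjusted p = 0.0585). Its share of the summed MAPK FPKM was 8.46 and 10.6% against 12.0 and 14.1%. Mapk7 (ERK5), which acts on MEF2 factors, stood at 2.05 and 1.72 against 3.56 and 4.64 FPKM (2.17-fold, limma adjusted p = 0.0271). After trimmed-mean scaling the limma adjusted p of Mapk7 was 0.163.

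In the JNK branch, Mapk9 (JNK2) rose and Mapk8 (JNK1) did not pass. Mapk9 stood at 3.54 and 4.23 against 7.69 and 7.02 FPKM (1.89-fold, log2 change 0.78 ± 0.18 SE, limma adjusted p = 0.0250). After trimmed-mean scaling the limma adjusted p of Mapk9 was 0.13. Mapk8 stood at 1.92 and 2.77 against 2.97 and 3.71 FPKM, so that WT 2 and KO 1 lay side by side (log2 change 0.38 ± 0.21 SE, limma adjusted p = 0.2). That change equals the median gene. The RNA of JNK2 was 1.84 and 1.53 times that of JNK1 against 2.59 and 1.89 times, where KO 2 barely exceeded WT 1.

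In the p38 branch 0 of 3 tested kinases passed (limma, 2 at an unadjusted p under 0.05). Mapk14 (p38 alpha) had the highest mean of all MAPKs, at 14.8 and 20.8 against 25.3 and 29.9 FPKM (log2 change 0.62 ± 0.23 SE, limma adjusted p = 0.0909). Mapk11 (p38 beta) stood at 6.15 and 8.66 against 11.8 and 12.6 FPKM (log2 change 0.67 ± 0.21 SE, limma adjusted p = 0.0564), and Mapk12 (p38 gamma) at 0.911 to 1.39 FPKM over the 4 libraries (limma adjusted p = 0.513). In the RefSeq gene table Mapk11 neighbours Mapk12 and Mapk14 neighbours Mapk13 (p38 delta). In each pair 1 gene was high and the other low: Mapk11 was 6.75 to 10.3 times Mapk12, and Mapk13 was at most 0.191 FPKM beside 14.8 to 29.9 FPKM for Mapk14.

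The 8 kinases that were not tested stayed under 1 FPKM in every library. They were Mapk4 (ERK4), Mapk10 (JNK3, known best from the brain), Mapk13, Mapk15, Map3k6, Map3k9, Map3k13 and Map3k15. Mapk10 was at 0.433 and 0.271 against 0.348 and 0.282 FPKM, and Mapk4 at 0.422 and 0.174 against 0.296 and 0.177 FPKM, so that the groups overlapped for both. Map3k15 was at 0.157 and 0.348 against 0.520 and 0.728 FPKM, Map3k9 at 0.132 and 0.315 against 0.534 and 0.491 FPKM, and Map3k13 at 0.258 and 0.263 against 0.436 and 0.4 FPKM. For these 3 both libraries labelled KO lay above both of the wild type, at about 12 to 46 fragments in the lowest library. The share of all genes under the filter that lay this way was not computed, so this is a description only. Mapk13 was listed at 0 in WT 1 and Mapk15 in WT 1 and KO 2, and Map3k6 was listed at 0 in every library but WT 1, where it was at 0.0113 FPKM.

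Ratios within a library do not depend on the scaling between libraries, and 6 ratios between tested relatives of the same branch were formed; they are given as a description, with no test. In the MKK3 to MKK6 pair, Map2k3 was 2.88 and 2.78 times Map2k6 against 4.57 and 4.31 times. Map2k1 was 0.842 and 0.830 times Map2k2 against 1.0 and 1.24 times, so that MEK1 lay below MEK2 in the wild type, level with it in KO 1 and above it in KO 2. Map2k4 was 0.569 and 0.680 times Map2k7 against 0.735 and 0.575 times, and these overlapped. The p38 alpha to beta ratio was 2.40 and 2.41 against 2.15 and 2.37.

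**Figure D3:**
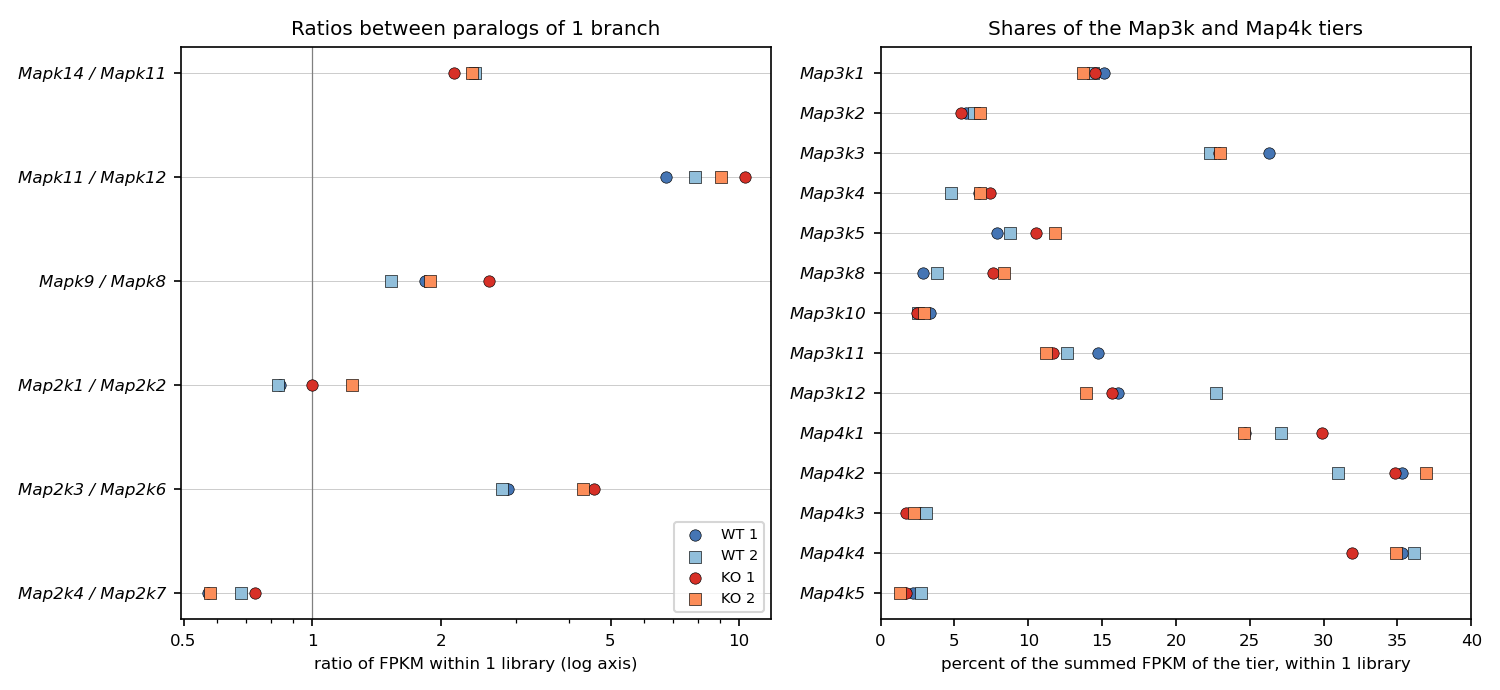
Left, ratio of FPKM between relatives of the same branch within each library (log axis); right, percent of the summed FPKM of the tier held by each tested MAP3K and MAP4K within each library. The ratios of Map2k4 to Map2k7 overlap between the groups, while all the other ratios shown separate them. The shares of Map3k4, Map3k5, Map3k8, Map3k11, Map3k12, Map4k3, Map4k4 and Map4k5 separate the groups too, some of them higher and some lower under the KO label. How often ratios or shares of other genes do so was not computed.

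Other genes of the pathway, in 6 lists of 112 genes, were read beside the kinases. Of 96 tested, 36 rose and 0 fell as deposited (limma, 25.6 and 1.0% of all genes), with a median log2 change of 0.62. After trimmed-mean scaling 3 were called higher and 2 lower (4.52 and 3.75% of all genes), and the 2 lower had not been called as deposited. The 3 higher were Mink1, Ksr1 and Elk4, and the other rises named from the lists did not pass after that scaling. Of the 96, 4 reached 1 FPKM only in libraries labelled KO and so had to differ, and 3 of these are among the 36 (Mapk8ip1, Spred1 and Dusp16); without them 33 of 92 rose. Relatives of the cascade kinases that carry other names gave 7 rises of 10 tested, and 1 after trimmed-mean scaling. Among them Mink1, a MAP4K close to Map4k4, stood at 9.12 and 10.4 against 23.3 and 23.9 FPKM (2.42-fold, limma adjusted p = 0.0136, and 0.0408 after trimmed-mean scaling), and Tnik, a further relative, rose 2.35-fold (limma adjusted p = 0.0182). Pak2, a kinase of RAC and CDC42, rose 2.14-fold and Taok2, a MAP3K of the p38 branch, 1.90-fold (limma adjusted p = 0.0186 and 0.0228, and 0.0562 and 0.103 after trimmed-mean scaling). Kinases activated by MAPKs gave 7 rises of 9, and 0 after trimmed-mean scaling. Of these, Mapkapk2, the p38 target that controls cytokine messenger RNA, stood at 10.2 and 15.8 against 28.8 and 30.5 FPKM (limma adjusted p = 0.0212). Mknk2, which phosphorylates eIF4E, was 2.18-fold higher (limma adjusted p = 0.0208).

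Scaffolds and adaptors gave 9 rises of 20 tested, or 8 of 19 without Mapk8ip1, against 25.6% of all genes. Ksr1, the scaffold that joins RAF, MEK and ERK, stood at 1.15 and 1.63 against 8.23 and 7.08 FPKM, a 5.51-fold rise (log2 change 1.86 ± 0.19 SE, limma adjusted p = 0.0106, and 0.0174 after trimmed-mean scaling). The JNK scaffolds Mapk8ip3 and Spag9 rose 2.28-fold and 2.12-fold (limma adjusted p = 0.0171 and 0.0209). Of the RAS and RAF inputs 4 of 22 rose as deposited (3 of 20 among those that reached 1 FPKM in the wild type), which does not exceed the 25.6% of all genes. After trimmed-mean scaling the only call was Rras2, which was lower, against 3.75% of all genes called lower. Rras2 was not called as deposited (limma adjusted p = 0.135, and 0.0425 after trimmed-mean scaling). Sos2, a RAS exchange factor, rose 2.08-fold (limma adjusted p = 0.0253).

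The phosphatases that switch MAPKs off gave 3 rises of 13 tested, near the share of all genes. They were Dusp4, Ptpn5 and Dusp16, the last of which reached 1 FPKM only in libraries labelled KO, and Dusp4 stood at 1.19 and 3.65 against 5.94 and 17.0 FPKM (limma adjusted p = 0.0406), with a wide spread inside each group. Dusp6, the ERK phosphatase of the cytoplasm, was at 9.32 and 19.2 against 23.7 and 34.5 FPKM and did not pass (limma adjusted p = 0.0684). Transcription factors regulated by MAPKs gave 6 rises of 22, also near it. Elk4, an ETS factor that ERK phosphorylates, stood at 4.46 and 4.84 against 14.5 and 14.4 FPKM, a 3.11-fold rise (log2 change 1.45 ± 0.17 SE, limma adjusted p = 0.0111, and 0.0232 after trimmed-mean scaling). Ets1, the ETS factor of resting T cells, had the highest level among the genes named from the lists, at 92.5 and 110 against 184 and 207 FPKM (1.93-fold, limma adjusted p = 0.0291). Elk3 and Mef2a rose 2.68-fold and 2.51-fold (limma adjusted p = 0.0215 and 0.0216).

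The plot of adjusted p-values over the settings gives the tested kinases side by side. It and the counts here leave out the 4 fits that joined trimmed-mean scaling with leaving out 1 library. Only 2 of the 13 settings scaled the libraries. Map4k1 and Map4k2 passed in 10 of 13 settings and Map3k8 in 9 of 12. Map3k5, Map2k3 and Mapk6 passed in 9 of 13 and Map4k4 in 8 of 13. Map2k1 passed in 5 of 13, and 10 kinases passed in none, among them Mapk14, Mapk8, Map2k2 and Map3k12.

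**Figure D4:**
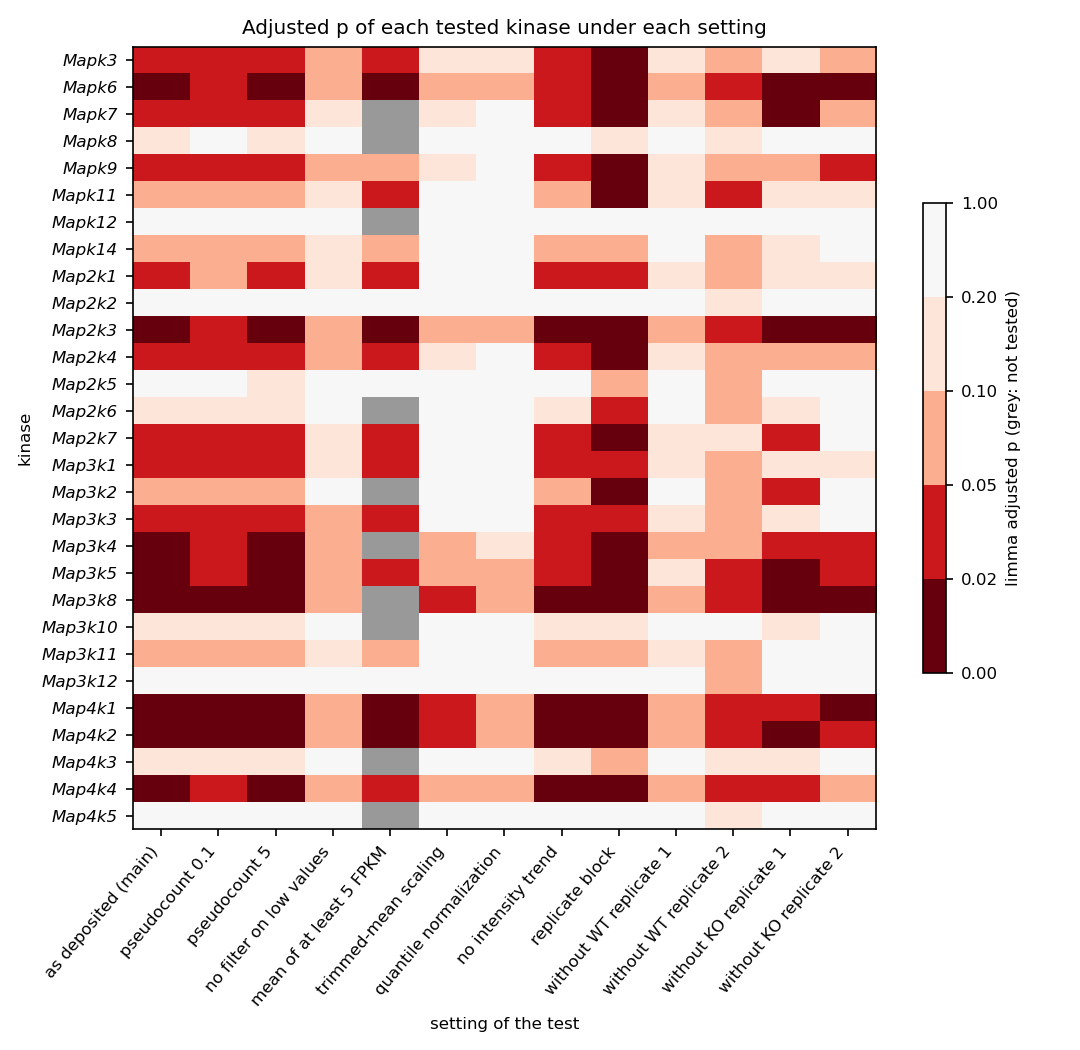
Limma adjusted p of the tested kinases (rows) as deposited and under 12 other settings (columns), in colour classes with the darkest reds under 0.05 and grey where a kinase was not tested. Map4k1, Map4k2 and Map3k8 are red after trimmed-mean scaling, and no kinase is red with no filter, after quantile normalization or without WT replicate 1.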

How the data were processed

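Total RNA of 4 libraries was measured. Per the labels' protocols, 200 ng of RNA went into each NEBNext Ultra library. The authors deposited 1 table of FPKM values per library, per the file headers; Bowtie 0.12.2 and the build mm8 come per the submitters' processing notes, and the FPKM program was not given in the sources used here. Groups and numbers came from the sample titles. Groups were compared with limma 3.58.1 in R 4.3.3, two-sided, on log2(FPKM + 1) with a trend on mean level, over rows that reached 1 FPKM in 2 or more libraries, with Benjamini-Hochberg adjustment over 11074 genes and a threshold of 0.05; changes on this scale understate those of low genes. Folds are ratios of mean FPKM. Trimmed-mean scaling was an own form on FPKM (30% of log ratios and 5% of levels trimmed at each side), with library factors of 0.799, 0.914, 1.20 and 1.14 for WT 1, WT 2, KO 1 and KO 2. Alternatives were 2 pseudocounts, 2 filters, 2 scalings, no trend, a replicate block and each library left out; trimmed-mean scaling with a library left out was chosen after seeing the data.

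Depth came from low values of genes with 1 transcript (GENCODE M21 lengths, 200 nt fragments assumed), of which 52.9 to 58.7% lay within 0.05 of a whole fragment; since this is not nearly all, no count test was run. On simulated data for this comparison (11074 genes, 5 runs, 100 genes changed at each size) the test recovered 77.2% of 2-fold and 96.2% of 4-fold changes, with 2.01% of calls false. The simulated libraries shared a common scale, with changes in both directions. These shares thus do not cover data with a shift between libraries, as here. Named were kinases called as deposited or after trimmed-mean scaling, the 2 highest of each tier, and up to 4 genes per pathway list by unadjusted p. Of the 155 symbols in the lists, 3 needed a synonym from the RefSeq table (GRCm38.p6). The kinases, lists and rules were chosen with earlier results of these data known. Some genes enter the counts, but their own values are not reported here. Scripts ran in Python 3.11.15.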

Additional observations from a re-analysis of the deposited data

How the results depend on the processing

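The change stayed above 0 for the 30 tested kinases under both pseudocounts, no filter, no trend and the replicate block, for the 20 tested with a mean of at least 5 FPKM, and with 1 library left out as deposited, except that Map3k12 was at 0.00 without WT 1. It turned after trimmed-mean scaling for Map2k2 (-0.13), Mapk12 (-0.06) and Map3k12 (-0.04), and after quantile normalization for Map2k2 (-0.11), Mapk12 (-0.09), Map3k12 (-0.05), Mapk8 (-0.05) and Map4k5 (-0.03), none of which had passed. With trimmed-mean scaling and 1 library left out, 9 kinases had a change below 0 in at least 1 of the 4 fits, the lowest being -0.22 for Map2k2, -0.20 for Map2k5, -0.01 for Map2k6, -0.33 for Map3k12, -0.04 for Map4k3, -0.09 for Map4k5, -0.15 for Mapk12 and -0.09 for Mapk8, with Map3k10 at 0 to 2 decimals. The 17 kinases called higher became 0 with no filter (22 at an unadjusted p under 0.05, limma), 3 after trimmed-mean scaling, 0 after quantile normalization, 0 to 11 on leaving out 1 library, and 0 in each case when trimmed-mean scaling and leaving out 1 library were combined. The 2832 genes called higher became 3, 501 and 148 under those 3 settings, 1562 with a mean of at least 5 FPKM (fewer genes tested), 9 to 2173 without 1 library, and 27, 58, 12 and 51 with both (without WT 1, WT 2, KO 1 and KO 2). The 111 called lower became 0, 415 and 68, and 230 with the replicate block, 1 to 132 without 1 library and 77, 68, 6 and 18 with both. The 36 pathway genes called higher became 0, 3 and 2, 20 with the mean filter, 0 to 32 without 1 library and 0 with both, and 2 were called lower after trimmed-mean scaling. Higher calls made up 96.2% of calls as deposited, 54.7% under trimmed means and 68.5% under quantiles. The log2 change of Ripk1 was 0.73 with no filter, 0.33 and 0.27 under trimmed means and quantiles, and 0.67 to 0.79 without 1 library, and it passed in none of these. The cause of these changes was not tested. In fits without 1 library the lone library of a group is assumed to vary like the other group. The replicate numbers shared by the groups are not tied to animals or batches by the labels; deviations of same-numbered libraries had a Pearson r of 0.108 over 11074 genes, and the replicate block gave 20 kinases called higher (35.3% of all genes) and 0 lower (2.08%), the 3 added being Mapk11, Map2k6 and Map3k2. With 2 libraries per group and no counts, intervals from counting error cannot be given.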

Other observations

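The summed FPKM of the Mapk tier was 56.9 and 68.9 against 112 and 113 FPKM, that of the Map2k tier 44.8 and 59.1 against 83.4 and 88.4, and that of the Map3k tier 43.9 and 55.2 against 81.4 and 88.4. In each tier WT 2 lay between WT 1 and the libraries labelled KO.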
